A study of Oryza sativa Indica Group with 12 samples.

Results

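Rice seedlings resupplied with potassium for 6 h (KR) were compared with seedlings left without potassium (KM), using 3 arrays of each, 6 of the 12 arrays of the study. The plants were indica rice IR64 grown hydroponically and taken as whole seedlings without their seeds, so that every array holds shoot and root RNA together. KR seedlings had 5 days of normal medium, 5 days without potassium and then 6 h in medium with 0.409 mM K2SO4. KM seedlings had the same 5 days of normal medium and 5 days with 0 mM K2SO4. The other 6 arrays were 3 of seedlings kept on 0.409 mM K2SO4 for the same 5 days (KP) and 3 of seedlings before the transfer (0h). They entered the estimate of the spread, and their levels are given only beside those of KR and KM. The title and the treatment tag of the 0h arrays disagree, since the tag gives potassium-free medium, and the title was followed. Each group is labelled as 3 biological replicates. The hours of harvest were not stated, so that 6 h of potassium and 6 h of the day cannot be told apart.

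Potassium is the main inorganic cation of plant cells, where it carries turgor, balances charge across membranes and activates many enzymes. Roots take it up through channels of the AKT1 type and carriers of the HAK family, and a calcium sensor system of CBL proteins and CIPK kinases regulates both. Long shortage slows photosynthesis and growth, and starved plants show changes in jasmonate, ethylene and oxidative stress responses. Resupply to starved plants shows which transcripts move within hours once the ion is back.

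Levels are log2 values of the deposited normalized intensities, on which 1 unit is a 2-fold difference, and every difference is KR minus KM with the standard error of the limma fit. A probe set was called when its adjusted p was under 0.05 and its difference at least 2-fold. Counts were kept to the 18419 bright probe sets, those with a log2 level of at least 5 in 3 or more of the 6 arrays, out of 57258. Of the bright probe sets 877 were higher in KR (4.76%) and 925 were lower (5.02%), together 9.78%. The median difference was 1.39 among those higher and −1.47 among those lower. At least 4-fold were 183 of the higher and 236 of the lower, at least 8-fold 65 and 70, and at least 16-fold 14 and 16. The arrays of both groups did not overlap in 875 of the 877 and in 921 of the 925, while KR arrays all lay above KM arrays in 29.6% of all bright probe sets and all below in 27.3%. A gene bright in 1 group only passes this filter through that group, and the KR mean of 96 of the lower and the KM mean of 50 of the higher probe sets lay under 4, where background limits the size of a difference. In whole seedlings a lower level can mean fewer cells of a type or less RNA per cell, and these cannot be told apart.

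The 38839 dim probe sets were left out because they were raised as a body on the KR arrays. The KR mean lay above the KM mean in 83.4% of them, against 50.9% of the bright ones, and 126 of them would have been called higher and 255 lower. Array medians were 2.79 to 2.83 in KR and 2.70 to 2.73 in KM. Signals of the 18S ribosomal RNA control were 9.75, 9.36 and 5.65 on KR arrays 1, 2 and 3, and 5.85, 5.66 and 4.95 on the KM arrays, so that KR arrays 1 and 2 stood apart. With both left out 751 bright probe sets were higher and 870 lower, and 1353 of the 1802 calls stood. The difference between the 3′ and 5′ GAPDH control probe sets was 2.09, 1.94 and 2.31 in KR and 1.78, 1.65 and 1.53 in KM. It was 1.98, 1.83 and 2.24 in KP, but 5.15, 5.62 and 5.95 on the 0h arrays, which enter the estimate of the spread. With the 0h arrays left out of the fit 1784 of the 1802 calls stood. Of the array's probe sets 22436 name 1 gene, and 1937 genes have a name and a bright probe set. Among these 116 were higher (5.99%) and 112 lower (5.78%), together 11.8%, the background for the gene lists below. A list count near these shares is no result about that list.

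**Figure D1:**
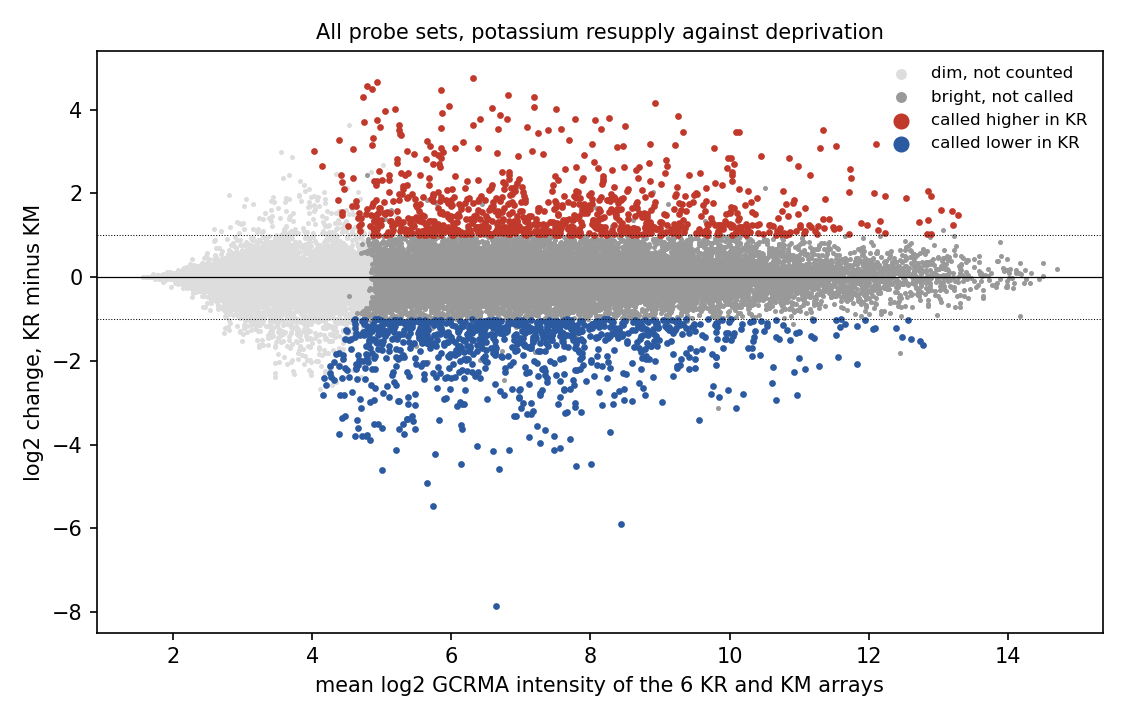
Each point is 1 of the 57258 probe sets, with the mean log2 GCRMA intensity of the 6 KR and KM arrays on the horizontal axis and the log2 difference KR minus KM on the vertical axis. Red points are the 877 bright probe sets called higher in KR, blue points the 925 called lower, and the dotted lines mark 2-fold.

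Among genes of chlorophyll synthesis and their GLK regulators, 14 of 15 listed were bright, 6 of these were higher in KR and none lower, with a list median of 0.40 against 0.04 over all bright named genes. The 8 that were not called went both ways. KR arrays lay all above the KM arrays in 7 of the 14 and all below in 6, against 34.6% and 27.3% of bright named genes. The count of genes called higher stayed at 6 under every alternative of the fit that was run. GLK1, one of a pair of transcription factors that switch on nuclear genes for chloroplast development, had 9.58, 9.82 and 9.60 in KR and 5.66, 6.04 and 5.98 in KM. That is a difference of 3.77 ± 0.11 (SE), or 13.7-fold (limma adjusted p = 4.95e-07). The KR arrays all lay more than 3 units above the KM arrays, and KP arrays were near 9.06. GLK2, its partner, had 9.82, 9.84 and 10.08 in KR and 8.63, 8.78 and 8.65 in KM, a smaller difference of 1.23 ± 0.10.

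The enzymes that rose sit at the steps from protoporphyrin to chlorophyll b. CHLH, the large subunit of the magnesium chelatase that opens the chlorophyll branch, had 10.57, 11.14 and 10.69 in KR and 7.73, 7.75 and 7.43 in KM. Its difference was 3.16 ± 0.16 (adjusted p = 7.24e-06). PORA and PORB reduce protochlorophyllide to chlorophyllide. PORA lay between 9.85 and 10.25 in KR and between 6.82 and 6.94 in KM, 8.82-fold. PORB had 11.17, 11.18 and 11.22 in KR and 9.05, 9.05 and 9.17 in KM, 4.28-fold. Both genes were also above their KP means in KR, which were 8.42 for PORA and 10.14 for PORB. CAO, the oxygenase that makes chlorophyll b, had 10.28, 10.56 and 10.49 in KR and 7.29, 7.31 and 7.20 in KM, a difference of 3.18 ± 0.08 (adjusted p = 1.63e-07). None of these arrays overlapped between the groups, and the replicates of each group stayed within 0.6 of each other.

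Outside that list, 3 further genes of the pathway were read after their values were seen or from the study's own selection. GluTR, the glutamyl-tRNA reductase of the first committed step, had 11.08, 11.11 and 11.18 in KR and 9.48, 9.75 and 9.59 in KM. CHLP, which reduces the geranylgeranyl tail of chlorophyll, had 11.78, 11.73 and 11.89 in KR and 9.78, 9.70 and 9.76 in KM. LOC_Os01g17170, annotated as the cyclase that closes the fifth ring of chlorophyll, had 6.71, 7.23 and 7.56 in KR and 4.22, 4.66 and 4.53 in KM. All 3 were called, with differences of 1.51, 2.05 and 2.70. The 8 bright listed genes that were not called held earlier steps of tetrapyrrole synthesis, 1 chelatase subunit, the chlorophyll synthase and genes of chlorophyll breakdown. Among them ALADH, the aminolevulinate dehydratase, stood at 0.53 and GSA, which makes aminolevulinate, at −0.15. CHLG, the chlorophyll synthase, stood at −0.26, and SGR, which starts chlorophyll breakdown, at −0.74.

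**Figure D2:**
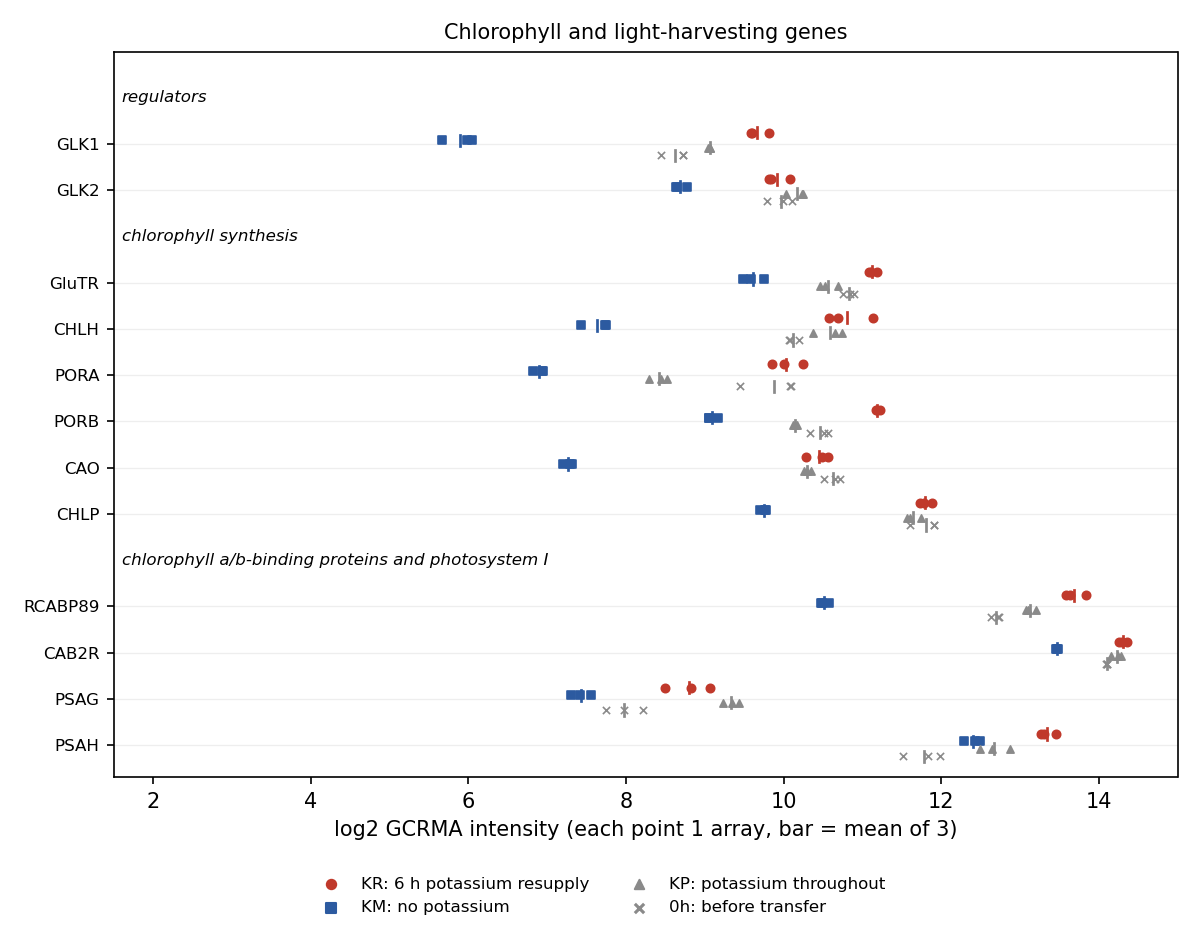
The horizontal axis gives the log2 GCRMA intensity of each array for genes of chlorophyll synthesis and light harvesting, with KR arrays as red circles, KM as blue squares, KP as grey triangles and 0h as grey crosses, and a bar at each mean of 3. For GLK1, CHLH, PORA and CAO the KR arrays lie about 3 units to the right of the KM arrays and near or beyond the KP arrays.

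Antenna proteins and photosystem genes rose in part. Of 12 listed genes 11 were bright, 2 were higher and none lower, with a median of 0.18. RCABP89, a chlorophyll a/b-binding protein, had 13.58, 13.84 and 13.64 in KR and 10.47, 10.58 and 10.49 in KM, a difference of 3.17 ± 0.07 (adjusted p = 9.73e-08). PSAG, a subunit of photosystem I, had 8.82, 9.06 and 8.50 in KR and 7.41, 7.56 and 7.30 in KM. Other members moved less. PSAH, another photosystem I subunit, stood at 0.95, RCABP69 at 0.67 and the plastocyanin gene PETE at 0.16. The Rubisco small subunit rbcS had 13.86, 13.84 and 13.73 in KR and 13.57, 13.63 and 13.67 in KM, a difference of 0.18 ± 0.08 (adjusted p = 0.103). Its other bright probe sets stood at −0.14 and −0.73 (adjusted p = 0.185 and 0.0254). CAB2R, an antenna protein, had 2 probe sets that differed in size, at 1.95 on a called one and 0.83 on the brighter one, which stands for the gene in the list.

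Loci annotated as antenna proteins in the category table of the study, which was drawn from these arrays and so is no independent evidence of a direction, stood with RCABP89. LOC_Os07g37550 had 12.81, 13.02 and 12.69 in KR and 9.61, 9.90 and 9.80 in KM, LOC_Os11g13890 was higher by 2.83 and LOC_Os04g38410 by 2.00. CLA1 and DXPS are both deoxyxylulose phosphate synthases, the entry enzyme of the plastid isoprenoid pathway, and they went opposite ways. CLA1, on chromosome 5, had 8.81, 9.25 and 9.24 in KR and 6.37, 6.48 and 6.58 in KM, a difference of 2.62 ± 0.15. DXPS, on chromosome 7, had 5.85, 5.23 and 5.51 in KR and 8.47, 8.45 and 8.36 in KM, a difference of −2.89 ± 0.32. Trxf, a plastid thioredoxin that activates enzymes of carbon fixation in the light, had 10.69, 11.23 and 10.65 in KR and 9.20, 9.32 and 9.05 in KM.

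The other pole of the comparison was the diterpenoid phytoalexins, antimicrobial compounds of rice made from a gibberellin-like precursor by gene clusters on chromosomes 2 and 4. Of 20 genes listed 13 were bright, of which 10 were lower in KR and none higher, with a median of −2.22. The count of lower genes was 8 under the methods' t-test, 9 with KR arrays 1 and 2 both left out and 10 under every other alternative of the fit. On chromosome 4, where the momilactone genes lie, CYP99A2, a cytochrome P450 of that pathway, had 3.65, 3.77 and 3.54 in KR and 7.91, 7.92 and 7.79 in KM. The difference was −4.22 ± 0.69 (adjusted p = 0.0017), with the KR arrays close to background. CYP99A3, its neighbour, had 5.88, 5.04 and 6.36 in KR and 9.87, 9.55 and 9.49 in KM. CPS4, the cyclase that opens the momilactone route, had 5.32, 3.79 and 3.26 in KR and 7.62, 7.67 and 7.30 in KM. KSL4, the next cyclase, had 2.92, 3.15 and 2.64 in KR and 6.66, 6.51 and 6.85 in KM, a difference of −3.77 ± 0.90 that was no longer called with KR arrays 1 and 2 both left out.

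The phytocassane genes on chromosome 2 fell as well, though less steeply. CPS2, the cyclase of that route, had 7.53, 6.75 and 5.74 in KR and 8.95, 8.98 and 8.75 in KM, a difference of −2.22 ± 0.56. KSL7, the cyclase after it, had 7.42, 7.16 and 7.18 in KR and 8.97, 9.09 and 8.85 in KM. The P450 genes CYP71Z6, CYP71Z7 and CYP76M8 of the same cluster had differences of −2.27, −2.18 and −2.12. CPS2 and CYP71Z7, whose KR arrays spread over almost 2 units, were not called by the methods' t-test. CYP701A8, a kaurene oxidase-like P450, had 7.31, 6.94 and 6.18 in KR and 9.83, 9.71 and 9.97 in KM.

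Of the 3 bright list members that were not called, all belong to the gibberellin branch, which starts from the same precursor. CPS1 had a difference of 0.47 ± 0.14, ks1 of −0.28 ± 0.11 and CYP701A19, also listed as D35, of 0.18 ± 0.13. Among the 7 dim members MAS, CYP76M5 and CYP76M6 would also have been called lower, at −1.71, −2.07 and −1.53. In KP the momilactone genes were nearer to KM than to KR, with means of 6.88 for CYP99A2 and 9.20 for CYP99A3. Phytocassane genes were mixed in KP. The KP means of CPS2, KSL7 and CYP71Z7 were 7.12, 7.64 and 8.40, closer to KR, while CYP71Z6, with means of 5.25 in KR and 7.52 in KM, had 7.02 in KP.

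**Figure D3:**
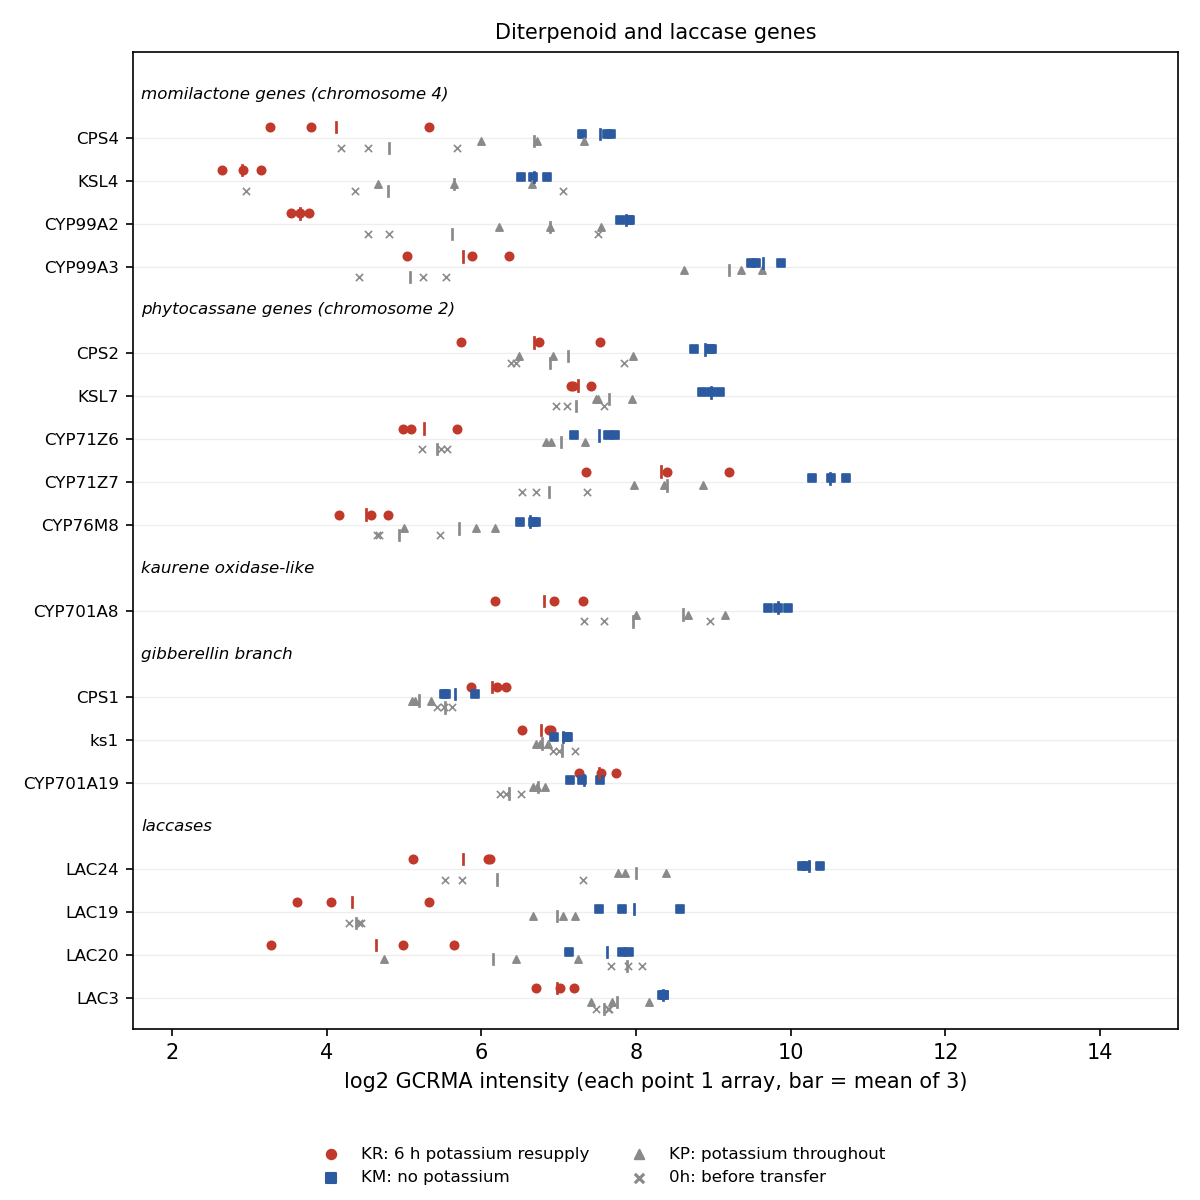
Log2 GCRMA intensity of each array on the horizontal axis for diterpenoid and laccase genes, grouped by pathway branch, with KR as red circles, KM as blue squares, KP as grey triangles, 0h as grey crosses and a bar at each mean of 3. KR arrays lie left of all KM arrays for the momilactone, phytocassane and laccase genes shown, while the groups lie close together for the 3 gibberellin genes.

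In the list of class III peroxidases and laccases 9 of 11 genes were bright, 2 were higher in KR, 4 lower and 3 not called. The 4 lower ones were all laccases, copper enzymes that couple lignin units. LAC24 had 6.11, 5.11 and 6.08 in KR and 10.38, 10.14 and 10.20 in KM. Its difference was −4.47 ± 0.46, or 22.2-fold (adjusted p = 0.000242). LAC19 was lower by 3.64 units, with 4.05, 3.62 and 5.32 in KR and 8.57, 7.52 and 7.82 in KM. LAC20 had 5.64, 4.99 and 3.28 in KR and 7.13, 7.91 and 7.82 in KM, a spread in KR that cost it its call under the methods' t-test, and LAC3 had a difference of −1.38. The peroxidases PRX74 and PRX112 were higher in KR, at 2.11 and 1.34.

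Glutathione transferases, which conjugate glutathione to reactive compounds, made up 4 of the 5 members that fell in the list of glutathione, glutaredoxin and antioxidant enzymes. That list had 56 of 61 genes bright, 6 higher and 5 lower, with a median of −0.14. The shares over all bright named genes were 5.99% and 5.78%. GSTU6 had 8.64, 8.79 and 8.86 in KR and 10.77, 10.94 and 10.86 in KM. It was no longer called with KR arrays 1 and 2 left out, nor was GST-I, at −1.48, while GSTZ5 stood at −1.11 and GST1 at −1.18, a call lost under 6 alternatives, among them those without KR replicate 1 and without KM replicate 1. Further loci annotated as glutathione transferases fell more steeply, and were picked after their values were seen. LOC_Os01g72140 had 6.33, 6.42 and 6.55 in KR and 9.76, 10.44 and 10.16 in KM, a difference of −3.69 ± 0.23, and its neighbour LOC_Os01g72150 stood at −3.39. LOC_Os10g38600 stood at −2.96 and LOC_Os10g38350 at −2.82. Members that rose in the list were thioredoxins and glutaredoxins, small redox proteins. GRXC15 had a difference of 1.94, Trxf of 1.67, GRXC10 of 1.63, GRXS2 of 1.33, GRXC1 of 1.16 and Trx14 of 1.11. The calls of GRXS2 and GRXC1 were lost with KR arrays 1 and 2 left out. The glutaredoxin GRXC7 had a difference of −1.07, a call lost without KR replicate 3.

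Of the cytochrome P450 list, which shares its phytoalexin members with the list above, 18 of 29 genes were bright, with 1 higher and 9 lower. Those lower outside the diterpenoid pathway were CYP71P1, the tryptamine hydroxylase that makes serotonin, at −1.90, CYP85A1, a brassinosteroid oxidase, at −1.39, and ABA8OX2 at −1.22. In phenylpropanoid and flavonoid synthesis 13 of 17 genes were bright, none was higher and 3 were lower. The ligase 4CL2 had 5.73, 5.69 and 5.44 in KR and 8.01, 8.46 and 8.49 in KM. Chalcone synthase CHS, with 12.33, 12.08 and 11.75 in KR and 13.08, 13.04 and 13.11 in KM, was called lower, and so was the chalcone isomerase gene Cfi, at −1.14. Without KR replicate 3 both lost their calls, which left 1 of the 3. PAL, the entry enzyme of the pathway, was not called, at 0.49. Of 18 pathogenesis-related genes and chitinases 15 were bright and 2 were lower. PBZ1, a pathogenesis-related protein of the PR-10 class, had 12.36, 12.19 and 11.37 in KR and 13.27, 13.75 and 13.73 in KM, and the chitinase Cht2 had a difference of −1.38.

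Genes of the jasmonate list moved in both directions. Of 37 listed 29 were bright, 7 higher and 3 lower, with a median of 0.29. The JAZ proteins, repressors that jasmonate itself induces, held 5 of the rises, out of 10 bright members. JAZ13 had 11.68, 11.47 and 11.04 in KR and 7.66, 8.89 and 9.08 in KM, a difference of 2.85 ± 0.48 (adjusted p = 0.00189). JAZ9 had 10.12, 9.47 and 9.78 in KR and 6.21, 7.80 and 7.47 in KM, a difference of 2.63 ± 0.44. JAZ10, JAZ6 and JAZ12 had differences of 1.86, 1.65 and 1.03. KM array 1 was the lowest KM array for each of these genes, and without KM replicate 1 or KR replicate 1 JAZ12 was no longer called. JAZ13 lost its call with KR arrays 1 and 2 left out. Bright JAZ genes that were not called stood at 0.89 (JAZ11), 0.63 (JAZ4), −0.10 (JAZ8), −0.25 (JAZ7) and −0.28 (JAZ3).

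The other rises of the list were BHLH148, a transcription factor that binds JAZ proteins, and LOX3, a lipoxygenase. BHLH148 had 10.79, 10.40 and 10.10 in KR and 7.20, 8.12 and 7.99 in KM. LOX3 had 5.35, 5.18 and 6.06 in KR and 2.42, 2.58 and 2.56 in KM, an 8.05-fold difference from KM levels at background. The falls were all genes named as oxophytodienoate reductases, and whether these members act in jasmonate synthesis was not tested. OPR5 had 9.02, 8.74 and 8.61 in KR and 11.70, 11.52 and 11.56 in KM, OPR10 had 7.54, 7.46 and 7.27 in KR and 10.09, 10.08 and 10.05 in KM, and OPR1 had 6.69, 5.77 and 6.32 in KR and 9.35, 8.70 and 8.85 in KM. Their differences were −2.80, −2.65 and −2.71, and for each the KR arrays lay below all KM arrays. Among genes of jasmonate synthesis the 2 bright AOS genes stood at 0.80 and 0.74 and the cyclase aoc at −0.08, none of them called. In KP JAZ13 had 12.59, 12.46 and 10.96 and JAZ9 had 10.41, 10.29 and 9.16, all above the KM arrays, while OPR5 and OPR10 in KP, at 10.72 and 9.43, lay between KR and KM.

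DREB1 factors, activators of cold and drought genes, stood high in KR with unsteady calls. Of 11 DREB and ERF genes listed 7 were bright, 2 were called higher and the median was 1.08. DREB1G had 9.19, 9.15 and 8.55 in KR and 3.91, 6.44 and 6.21 in KM, a difference of 3.45 ± 0.78 (adjusted p = 0.00761). The groups did not overlap, but DREB1G was not called by the methods' t-test or without KR arrays 1 and 2. DREB1A had 10.07, 10.46 and 9.91 in KR and 8.61, 9.26 and 9.33 in KM, and its call at 1.08 ± 0.36 was lost under 10 alternatives. DREB1B, at 1.18 ± 0.45, and DREB1E, at 1.14 ± 0.57, were not called. KM array 1 was again the lowest of the KM arrays for all 4.

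Abscisic acid genes moved in both directions, 2 higher and 3 lower of 23 bright genes out of 29, with a median of −0.19. Over all bright named genes the shares were 5.99% higher and 5.78% lower. ZEP1, a zeaxanthin epoxidase that supplies the precursor of the hormone, had 7.69, 8.16 and 8.11 in KR and 5.68, 5.99 and 5.85 in KM. ABA8OX1, a hydroxylase that inactivates it, had 11.21, 11.09 and 10.94 in KR and 9.06, 9.48 and 9.57 in KM. ABA8OX2, of the same family, had the opposite sign, with 5.81, 5.39 and 6.44 in KR and 7.19, 7.02 and 7.08 in KM, and was not called without KR replicate 2, under the methods' t-test or with KR arrays 1 and 2 left out. LOC_Os02g47510, annotated as an epoxycarotenoid dioxygenase of abscisic acid synthesis and picked after its values were seen, had 8.71, 9.33 and 9.20 in KR and 6.47, 6.85 and 6.81 in KM.

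Genes of abscisic acid signalling also went both ways. SAPK1, a kinase of the SnRK2 family, had 6.41, 6.45 and 6.54 in KR and 7.91, 7.68 and 7.67 in KM. Of 55 type 2C protein phosphatases 48 were bright, 2 were higher and 3 were lower, with a median of 0.14. Among all bright named genes 5.99% were higher and 5.78% lower. The 3 lower phosphatases belong to the group that abscisic acid receptors bind, whose other members are not given here. PP2C09 had 6.11, 5.49 and 6.36 in KR and 8.46, 8.19 and 8.08 in KM, a difference of −2.26 ± 0.30. PP2C06 had 5.62, 5.62 and 5.97 in KR and 7.70, 7.55 and 7.30 in KM, and PP2C68 stood at −1.37 ± 0.34. PP2C68 was lost under the methods' t-test, on the log2(value + 16) scale and with KR arrays 1 and 2 left out. The 2 higher ones were PP2C15, at 1.16, and PP2C35, at 1.03, a call lost under 5 alternatives, among them those without KR replicate 1 and without KM replicate 1. Late embryogenesis proteins, targets of the hormone that protect drying cells, leaned on 1 KM array. LEA3 had 3.01, 2.76 and 3.39 in KR and 7.28, 5.18 and 5.14 in KM, and its call at −2.81 ± 0.79 was lost without KM replicate 1, without KR replicate 2, under the methods' t-test, on the log2(value + 16) scale and with KR arrays 1 and 2 left out. RAB21, a dehydrin, had 6.02, 5.71 and 5.82 in KR and 9.03, 6.95 and 6.89 in KM and was not called (adjusted p = 0.0867).

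**Figure D4:**
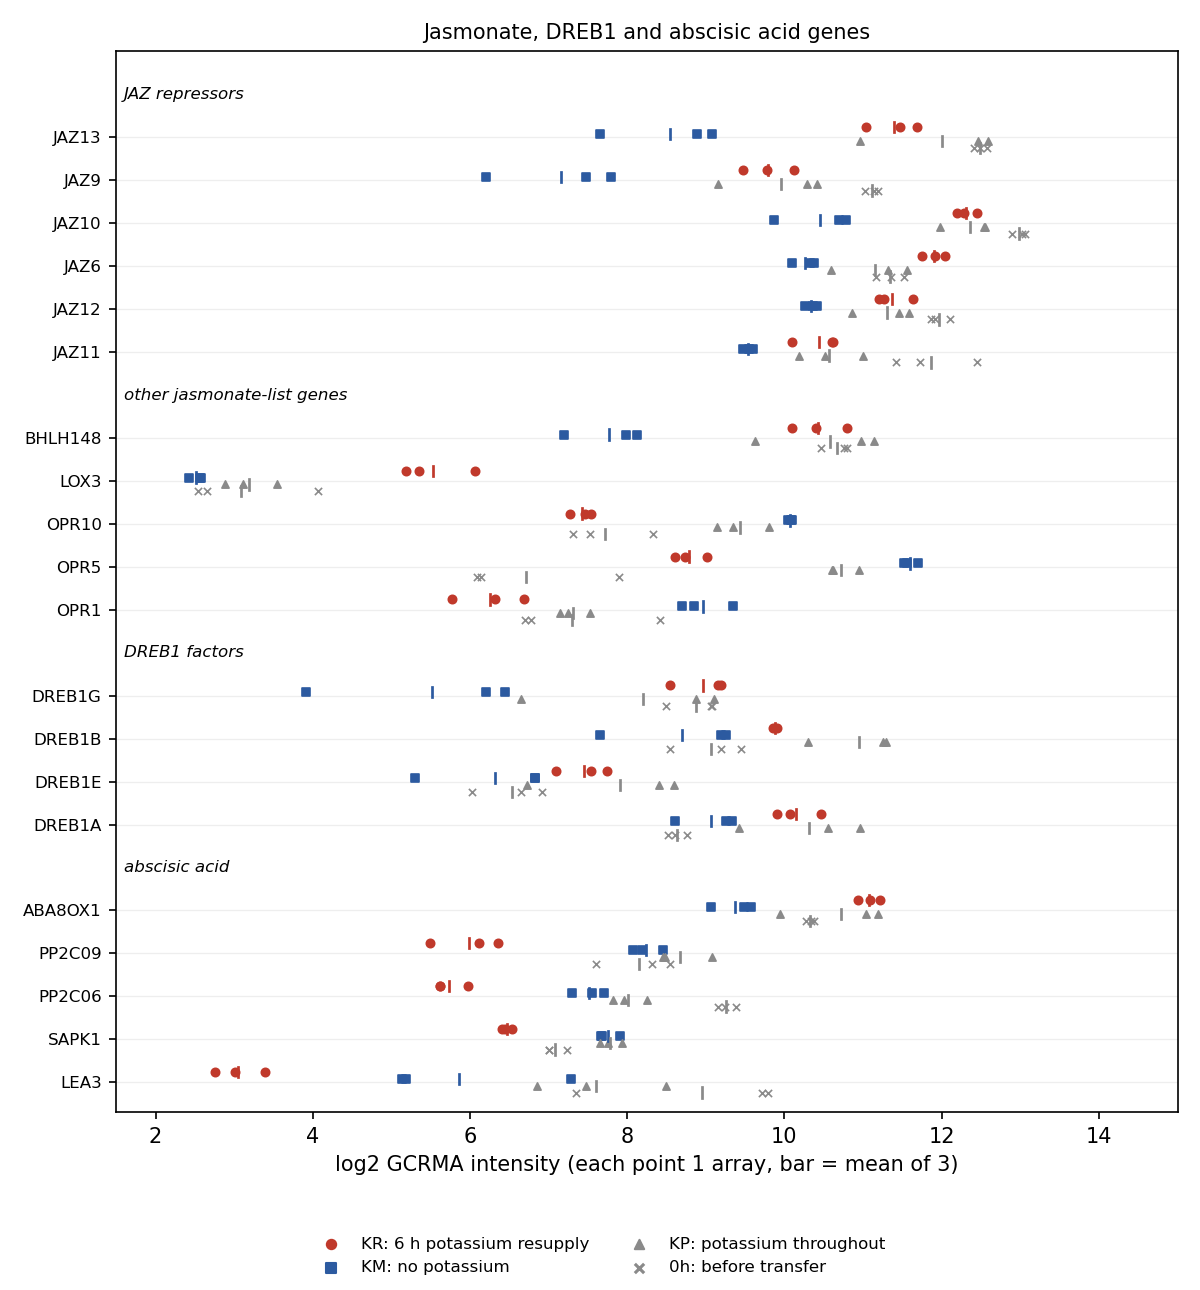
Log2 GCRMA intensity of each array on the horizontal axis for jasmonate, DREB1 and abscisic acid genes, with KR as red circles, KM as blue squares, KP as grey triangles, 0h as grey crosses and a bar at each mean of 3. In the JAZ and DREB1 blocks 1 KM array, array 1, lies left of the other 2, and for OPR10, OPR5 and OPR1 all KR arrays lie left of all KM arrays.

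Of 7 alpha-amylase and seed proteinase genes listed 3 were bright and 1 of them, EP3A, was called lower in KR. Alpha-amylase loci outside the list were picked after their values were seen. The locus LOC_Os09g28430, annotated as an alpha-amylase, which breaks starch down to sugars, had 3.52, 2.75 and 2.73 in KR and 8.93, 8.27 and 8.19 in KM. Its difference of −5.46 ± 0.47 is 44.1-fold (adjusted p = 0.000112). LOC_Os02g52700, a second alpha-amylase locus, had 2.58, 3.10 and 2.50 in KR and 7.01, 6.04 and 6.49 in KM. In KP these loci averaged 2.85 and 2.43. Other bright probe sets of LOC_Os02g52700 read higher levels, with means of 5.52 in KR and 8.78 in KM on one that was called lower, and of 8.26 in KR and 11.39 in KM on one that was not called (−3.13, adjusted p = 0.0593). EP3A, a cysteine proteinase of germinating seeds, had 3.31, 5.25 and 3.30 in KR and 7.41, 6.38 and 7.22 in KM, and was not called by the methods' t-test.

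AMY1A, another alpha-amylase, had 11.34, 12.23 and 11.05 in KR and 13.51, 13.29 and 13.28 in KM. Those groups did not overlap, but KP arrays had 10.99, 3.49 and 2.54, and in the fit over 12 arrays it was not called (−1.82 ± 1.81, adjusted p = 0.433), while the fit on the 6 KR and KM arrays called it lower. The seedlings were taken without seeds. Of 9 seed storage and starch genes only GLB and GLUA-2, both seed storage proteins, were bright, and their levels did not separate the groups. AMY1A, whose arrays did separate KR from KM, was not among these 9. The log2 of the summed intensity of the 9 was 10.18 to 10.32 in KR and 9.95 to 10.25 in KM, with prolamin and the other 6 dim on these arrays. The part of residual seed tissue in the amylase values was not tested.

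Few potassium transport genes were called, near the share of all bright named genes. Of 28 listed 20 were bright, none was higher and only HAK16 was lower, with a median of −0.17. Among all bright named genes 5.99% were higher and 5.78% lower. HAK16, a carrier of the HAK family, had 5.91, 5.15 and 5.79 in KR and 7.11, 7.02 and 6.77 in KM, a difference of −1.35 ± 0.24 (adjusted p = 0.00246), and KP averaged 7.57. AKT1, the inward channel of root uptake, had means of 7.18 in KR and 7.08 in KM, a difference of 0.10 ± 0.12. HAK1, the high-affinity carrier induced by starvation, had means of 9.45 in KR and 9.86 in KM, at −0.41 ± 0.32 (adjusted p = 0.323). Its second, less bright probe set had means of 7.47 in KR and 8.28 in KM, a difference of −0.81 ± 0.19 (adjusted p = 0.00998) that stayed under 2-fold. HAK7 stood at 0.90 ± 0.15 and HAK15 at 0.43, and HAK17, HAK18 and HAK9 at −0.83, −0.79 and −0.62, all under 2-fold.

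The remaining bright members lay between −0.31 (HAK11) and 0.32 (TPK3). They were HAK25 at 0.23, HAK23 at 0.19, HAK2 at 0.10, HAK10 at −0.02, HAK22 at −0.04, HAK5 at −0.16, KCO1 and KCO2 at −0.18, TPK2 at −0.24 and HAK12 at −0.25. HAK5 and HAK17 each had a second, less bright probe set that was called lower. HAK5 on that probe set had 6.12, 5.34 and 5.78 in KR and 6.64, 7.06 and 7.10 in KM, against a KP mean of 5.20, and HAK17 stood at −1.07. That HAK5 call was lost without KR replicate 2, and that of HAK17 without KM replicate 2 and without KM replicate 3. For HAK5 the probe set of the list read 12.20 in KR and 12.36 in KM. Among the 8 dim members HAK27 would have been called lower, at −2.32.

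Of 31 CBL and CIPK genes 24 were bright. On the probe sets of the list none was higher and 3 were lower, with a median of −0.22. CIPK7 and CIPK8 stood at 0.50 and 0.25 on these probe sets and were not called. The study read CIPK7 from another probe set, which it reports as up on resupply and which does not stand in this list. CIPK25 lay between 7.76 and 7.93 in KR and between 9.42 and 10.03 in KM, a difference of −1.95 ± 0.28. CIPK5 stood at −1.47, a call lost with KR arrays 1 and 2 left out, and CIPK18 at −1.04, a call lost without KR replicate 2, without KM replicate 3 and on the log2(value + 16) scale. Among the dim members CIPK29 would have been called higher, at 1.71. CIPK10 was read by 3 probe sets that did not agree in size, at 0.81 on the brightest, which stands in the list, and at 1.03 and 2.22 on a pair that were called higher. Calcium-dependent kinases and calmodulin-like proteins had 40 of 56 genes bright, 7 higher and 2 lower. The 7 fell to 4 without KM replicate 1 and under the methods' t-test, and the 2 to 1 without KR replicate 1, without KR replicate 3, without KM replicate 2 and on the log2(value + 16) scale. The kinase CPK4 led them, with 10.75, 10.69 and 10.48 in KR and 8.11, 8.17 and 8.30 in KM. CPK20 and CPK1 stood at 1.25 and 1.11, and the calcium-binding proteins CML27, CML15, CML10 and CML14 at 1.64, 1.25, 1.06 and 1.04. The 3 calls lost without KM replicate 1 were those of CML15, CML10 and CML14. CML1 had 10.67, 10.51 and 10.27 in KR and 11.99, 11.98 and 11.81 in KM, and CML8, whose call was the 1 lost, stood at −1.02.

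Carbon and nitrogen metabolism held some of the largest rises among named genes. PPDK2, a pyruvate, phosphate dikinase that makes phosphoenolpyruvate, had 6.12, 6.58 and 8.60 in KR and 2.63, 2.61 and 2.58 in KM. Its difference of 4.50 ± 0.53, 22.6-fold (adjusted p = 0.000456), started from background, and KR array 3 stood 2 units above the other KR arrays. GLT2, a glutamate synthase that uses NADH, had 9.10, 9.39 and 9.60 in KR and 6.76, 6.43 and 6.18 in KM. P5CS2, the enzyme that commits glutamate to proline, had 7.19, 6.89 and 7.60 in KR and 4.25, 4.42 and 4.14 in KM. KP means were 2.79 for PPDK2, 6.16 for GLT2 and 4.22 for P5CS2, so that all 3 were above both KM and KP in KR.

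Of 9 genes of nitrogen assimilation 7 were bright and NIA1, a nitrate reductase, was the 1 called. It had 12.06, 12.25 and 11.81 in KR and 10.79, 10.60 and 10.54 in KM. Of 35 genes of sucrose, starch and trehalose metabolism 22 were bright and 2 higher, TPP1, a trehalose phosphate phosphatase, at 1.78 and the sucrose synthase SUS4 at 1.24. ALDP, a plastid aldolase, was 8.12-fold higher on 1 probe set, but its other 2 probe sets stood at 0.30 and 0.32 and were not called. AOX1, the alternative oxidase of mitochondria, had 6.60, 6.15 and 6.66 in KR and 8.84, 9.19 and 9.11 in KM, and was the only 1 of 5 bright genes of the low oxygen list to be called. Among sugar transporters 11 of 18 were bright and SWEET2a was higher, at 1.10, a call lost with KR arrays 1 and 2 left out.

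Genes of other mineral nutrients moved singly. Of 41 iron genes 27 were bright, 2 higher and 1 lower, with a median of 0.02. Shares over all bright named genes were 5.99% higher and 5.78% lower. VIT2, which loads iron into the vacuole, had 11.09, 11.15 and 11.53 in KR and 8.08, 9.02 and 8.89 in KM. IRO3, a repressor of the iron deficiency response, had 4.17, 4.11 and 4.16 in KR and 5.55, 5.90 and 5.70 in KM, and osysl12, a yellow stripe-like transporter, stood at 1.08. The call of osysl12 was lost under 8 alternatives, among them those without KR replicate 3 and without each of the KM arrays. The ferric reductase 0sFRO1, spelled as in the annotation and picked after its values were seen, had 6.02, 6.39 and 6.49 in KR and 4.65, 4.44 and 4.15 in KM, both far below its KP mean of 9.22. In sulfate and phosphate nutrition 10 of 20 genes were bright. APR1, which reduces activated sulfate, had 7.50, 7.41 and 7.38 in KR and 10.20, 9.85 and 9.82 in KM. The phosphate transporter Pht1;1 stood at 1.08, a call lost without KM replicate 1. A pair of magnesium transporters went opposite ways. MHX1, a vacuolar exchanger of magnesium and zinc for protons as known in Arabidopsis, had 5.72, 5.43 and 5.18 in KR and 8.57, 8.53 and 8.59 in KM, while MRS2-A, of a family of magnesium channels, had 7.38, 7.55 and 7.59 in KR and 5.88, 6.11 and 5.87 in KM.

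Wall and growth genes rose by a few members. Of 75 expansins, cellulose synthases and other wall enzymes 52 were bright, 7 higher and none lower, with a median of 0.15. EXPB2, an expansin, had 8.18, 8.52 and 8.34 in KR and 6.80, 6.82 and 6.38 in KM. EXLA2, EXPB7 and EXP3 stood at 1.5, 1.39 and 1.10, the cellulose synthase-like CSLC9 and CSLE1 at 1.15 and 1.05, and the endoglucanase GLU1 at 1.19. The count fell to 4 on the log2(value + 16) scale and with KR arrays 1 and 2 left out. EXP3 lost its call under 7 alternatives, without any 1 of KR replicates 2 and 3 and KM replicates 1, 2 and 3 among them, CSLC9 without KR replicate 1 and CSLE1 without KR replicate 3. PMEI8, an inhibitor of pectin methylesterase outside this list, was lower, with 2.39, 3.76 and 3.40 in KR and 6.95, 6.75 and 6.38 in KM.

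Cytokinin genes had 24 of 32 bright, 2 higher and none lower, against 5.99% higher and 5.78% lower of all bright named genes. The 2 were RR9 and RR6, response regulators that cytokinin induces. RR9 had 10.91, 10.86 and 10.66 in KR and 8.60, 8.31 and 8.08 in KM, and RR6 had a difference of 1.52 ± 0.15. Among 7 bright ethylene genes of 11, ACS2, which makes the ethylene precursor, had 7.06, 6.69 and 6.74 in KR and 4.82, 5.27 and 5.10 in KM, and the receptor ETR2 stood at 1.08. Neither was called with KR arrays 1 and 2 left out, nor ETR2 without KM replicate 3. Auxin genes had 45 of 59 bright, 3 higher and 3 lower, near the shares of 5.99% and 5.78% over all bright named genes. The lower ones included SAUR39 at −1.88 and GH3.2, which conjugates auxin to amino acids, at −1.26. The 3 that were higher, PIN3a, IAA20 and IAA6, lay between 1.00 and 1.15 and were all lost on the log2(value + 16) scale. IAA20 was lost under 8 alternatives and IAA6 under 5, both of them without KR replicate 3 and without KM replicate 1. SAUR39 and GH3.2 were lost with KR arrays 1 and 2 left out.

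Among regulators, the clock gene PRR95 had 11.46, 11.44 and 11.41 in KR and 8.70, 8.50 and 8.59 in KM, a difference of 2.84 ± 0.05 (adjusted p = 9.73e-08). Of 8 clock genes 7 were bright, 1 was called and the median was 0.62. KR arrays lay all above the KM arrays in 6 of the 7 and all below in none, against 34.6% and 27.3% of bright named genes. DTH7, PRR73 and PRR1, of the same pseudo-response regulator family, stood at 0.84, 0.80 and 0.62. PRR95 transcripts have a daily rhythm, and the KP mean was 9.68. CCA1, another clock gene, was not called, with means of 6.65 in KR and 6.22 in KM against 10.94 in KP. GI, also not called, had 11.38 in KR, 11.20 in KM and 10.47 in KP. The hours of harvest were not stated for KP either, and their part in any difference from KP was not tested. Heat shock genes had 28 of 47 bright, 3 higher and 2 lower, against 5.99% and 5.78% of all bright named genes. The heat stress factor HSFA3 led the rises, with 7.01, 7.20 and 7.59 in KR and 4.25, 4.78 and 4.25 in KM. The small heat shock protein genes HSP17.9A and HSP16.9A stood at 1.80 and −1.92. WRKY71 was the 1 of 5 bright WRKY factors to be called, at 1.5 ± 0.28, though its second probe set stood at 0.71 and was not called. MYB2, at 1.85, was lost with KR arrays 1 and 2 left out. HOX15 fell most among 25 bright homeobox genes, with 6.74, 6.68 and 6.68 in KR and 8.50, 8.23 and 8.23 in KM.

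Several lists gave no call at all in either direction, where 11.8% of all bright named genes were called. They were the aquaporins (19 bright of 25, median 0.19), plastid and cytosolic ribosomal proteins (22 of 22, median 0.02), NAC factors (6 of 8, median −0.42) and gibberellin genes (8 of 11, median 0.10). Transporters of ammonium and nitrate (4 of 11, median 0.33) gave none either, and the 4 bright ones were all for ammonium. Some alternatives did give calls, up to 2 aquaporins, 1 gibberellin gene and 1 gene of the ammonium and nitrate list, all higher. For the NAC, gibberellin and ammonium lists, which have few bright genes, no call is near the share of 11.8%. The silicon channel Lsi1, an aquaporin relative of roots, came closest, with 12.19, 12.19 and 12.11 in KR and 11.34, 11.06 and 11.11 in KM, a difference of 0.99 just short of 2-fold. PIP2;4, another aquaporin, also stood at 0.99, under 2-fold. On the called side of that threshold BZIP02 stood at 1.00, a call lost under 9 alternatives. At the brightness threshold DOF1 lay just inside, with means of 4.90 in KR and 4.95 in KM, and NIGT1 just outside, with 5.18 and 4.87. Of 35 DNA replication and cell cycle genes 27 were bright and the replication protein RPA70b was called, at 1.08, though not without KR replicate 3. The list median was 0.46, with MCM3, a replicative helicase subunit, at 0.88. KR arrays all lay above KM arrays for 15 of the 27, against 34.6% of bright named genes. Most of these differences stayed under 2-fold.

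Root and leaf markers were read beside these lists. Of 6 root markers Lsi1 and Lsi2 were bright, and the log2 of the summed intensity of the list was 12.24 to 12.36 in KR and 11.25 to 11.57 in KM, without overlap. IRT1 and NRT2.2 were at background in both groups, and NAS1, a nicotianamine synthase, had 2.56, 2.38 and 2.35 in KR and 5.01, 4.43 and 4.03 in KM. The leaf markers CAB2R and rbcS summed to 15.06 to 15.09 in KR and 14.52 to 14.57 in KM, though other probe sets of rbcS, given above, had the opposite sign. Both sums were higher in KR, and the part of a different share of root and leaf tissue in the results above was not tested.

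**Figure D5:**
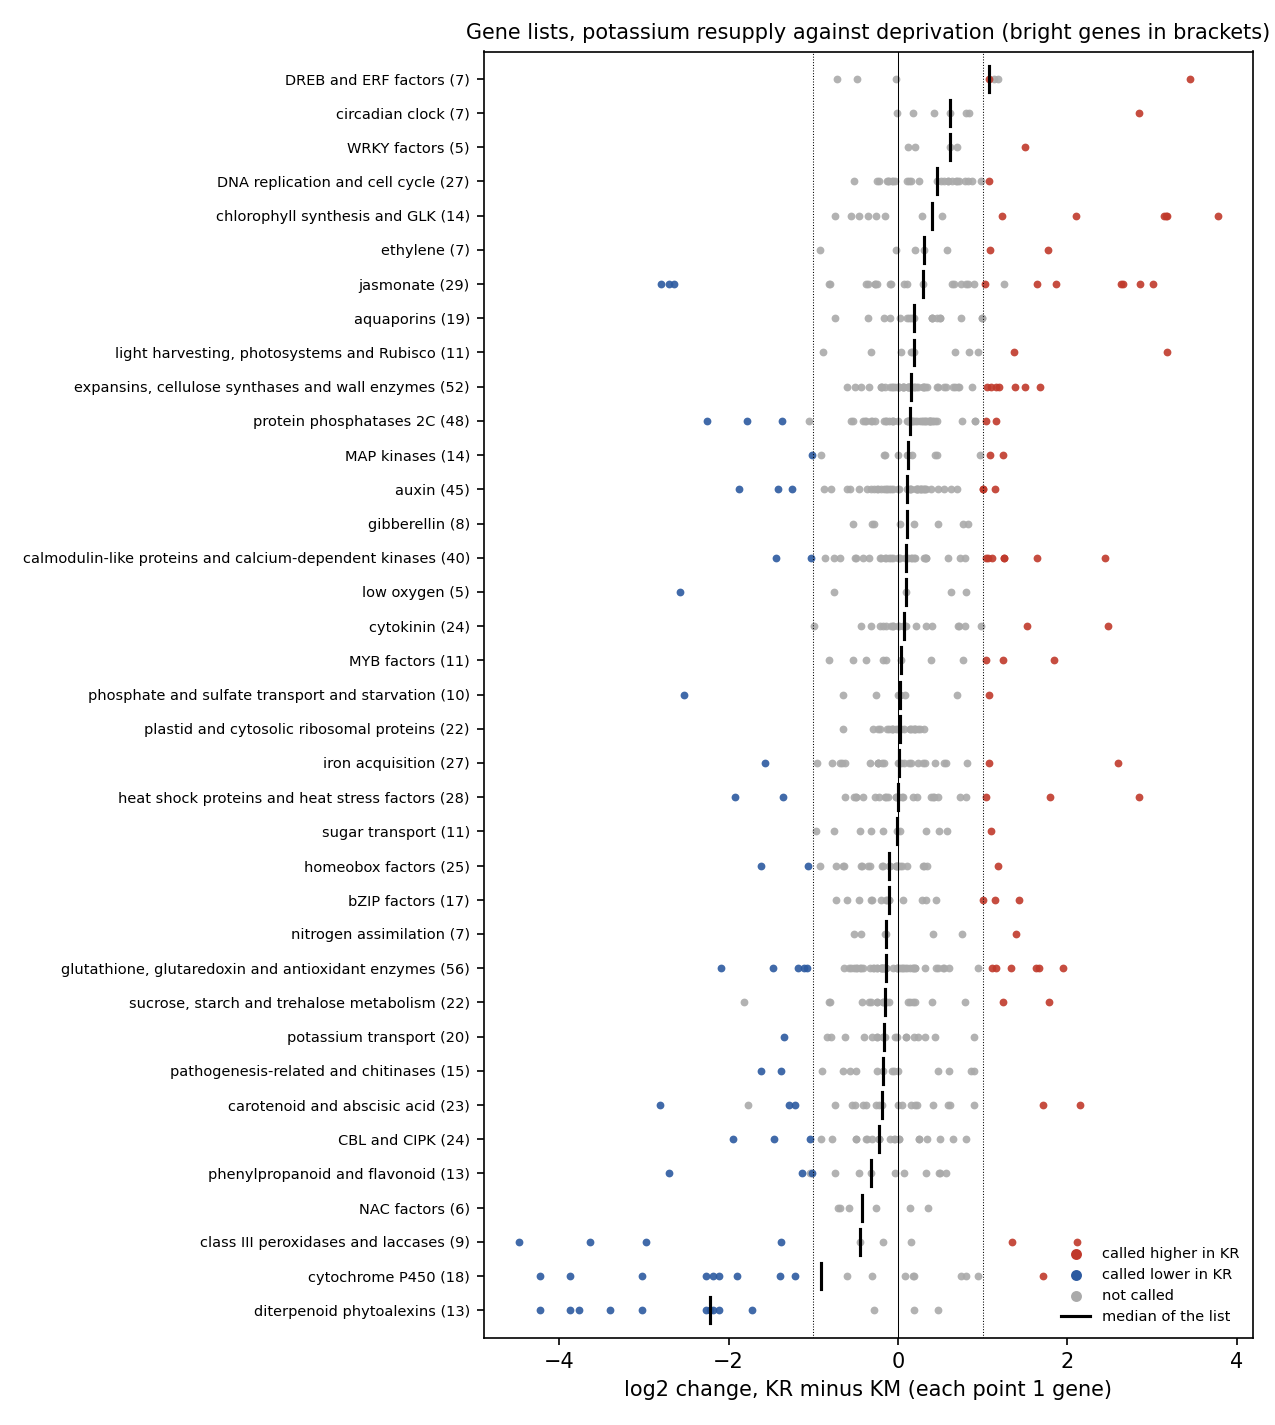
Each point is 1 bright gene, placed by its log2 difference KR minus KM on the horizontal axis, in the gene list named at the left with its number of bright genes, for lists of 5 or more. Red points were called higher in KR, blue points lower, grey points were not called, and the black bar marks the list's median, which is lowest for diterpenoid phytoalexins at −2.22.

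Some of the largest single differences lay outside the lists. CRSH2, an enzyme that makes the alarmone ppGpp in plastids and is activated by calcium, had 4.39, 4.90 and 4.26 in KR and 10.15, 7.92 and 7.94 in KM, a difference of −4.15 ± 0.61. LOC_Os02g46460, annotated as a peptide transporter, had 9.32, 9.21 and 9.49 in KR and 4.81, 5.35 and 4.97 in KM, 19.7-fold. LOC_Os11g15040, annotated as a methyltransferase of salicylic and benzoic acid, had 9.43, 9.21 and 9.0 in KR and 4.97, 5.44 and 5.05 in KM. A B-box zinc finger locus, LOC_Os04g41560, of a family with known members in light signalling, had 10.81, 11.26 and 11.10 in KR and 7.36, 7.86 and 7.57 in KM. LOC_Os02g39710 and LOC_Os03g50310, of the same family and picked after their values were seen, stood at 2.36 and 1.97.

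In the PCR panel 18 of 19 loci had a probe set, and all 18 were called. The panel was picked from these same arrays, so that its direction is no independent evidence. The falls among them included LOC_Os11g14910, annotated as an NADP-dependent oxidoreductase, with 5.76, 4.57 and 6.27 in KR and 10.26, 9.94 and 9.97 in KM. The peroxidase locus LOC_Os07g48050 had 2.73, 2.92 and 2.99 in KR and 6.70, 6.50 and 6.80 in KM, and the short chain dehydrogenase locus LOC_Os11g07930 stood at −4.13. LOC_Os01g43720, annotated as a cytochrome P450 and not of that set, stood at −4.04.

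Precursors of phytosulfokine, a small peptide hormone of growth, went opposite ways: PSK2 had 6.27, 6.51 and 6.50 in KR and 4.63, 4.52 and 4.21 in KM, and LOC_Os06g42680 had 2.95, 3.52 and 2.97 in KR and 6.37, 6.32 and 6.11 in KM. The largest fall of all bright probe sets was a probe set that the annotation pairs with no gene. It had 2.75, 2.77 and 2.60 in KR and 10.39, 10.68 and 10.63 in KM, a difference of −7.86 ± 0.33 (adjusted p = 2.95e-06), with KP at 8.13, 9.40 and 9.28. Another without a gene followed at −5.90. The largest rise, in a gene with no name on chromosome 7, had 8.55, 8.70 and 8.81 in KR and 3.93, 4.01 and 3.85 in KM, a difference of 4.76 ± 0.79, and a probe set without a gene followed at 4.66.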

How the data were processed

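RNA of whole IR64 seedlings was hybridized to Affymetrix rice arrays, 3 biological replicates each of KR, KM, KP and 0h. Scans were handled in GCOS 1.2.1 per the submitters' processing notes, and GCRMA normalization in ArrayAssist was done by the authors. The deposited values are these intensity values on a linear scale, 1 column per array, and no other column of per-sample values was present. Log2 was taken without further normalization. The 123 control probe sets were set aside and 57258 tested.

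limma 3.58.1 (R 4.3.3) fitted 1 mean per group over the 12 arrays, with the contrast KR minus KM, eBayes and Benjamini-Hochberg adjustment over all 57258 probe sets. Thresholds of adjusted p under 0.05 and 2-fold are those of the study's methods. In data simulated for this comparison over 57258 probe sets, 0%, 38%, 86% and 96% of 50 changes each of 1.5, 2, 3 and 4-fold were called, and 0 of 57058 unchanged probe sets. The simulation drew independent noise and changed 200 probe sets, without shifts of whole arrays. Its 0 is therefore not an error rate for these arrays, and the 2-fold threshold by itself keeps most smaller changes from being called. The 3 arrays per group limit the precision of every value. Replicates with the same number did not deviate together, and the numbers were not used as pairs.

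Probe sets were paired with genes through the platform annotation, symbols were updated through RefSeq genes of assembly ASM3414082v1, and loci were read from the category table in the study's supplement. In a list each gene was read from its brightest probe set by the mean of 12 arrays, and the 95 probe sets of more than 1 gene were dropped. Probe sets ending in _x_at or _s_at can also take signal from related genes. Members and lists were chosen with earlier results of these data known. Named genes are the 15 largest rises and 15 largest falls among called, bright, named genes without overlap, for each list up to 4 members by smallest adjusted p, every bright potassium transport gene and the PCR loci, 204 probe sets in all. Another 57 probe sets, and any further list member given, were picked with their values already seen. Array scans and PCR data were not used here.

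Alternatives were the 6 KR and KM arrays alone, quantile or median scaling, log2(value + 16), other brightness and fold thresholds, adjustment over bright probe sets, the methods' t-test, an intensity trend with a robust prior, the replicate block and each array left out. Added after seeing the data were leaving out KR arrays 1 and 2 together, and the 0h arrays.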

Additional observations from a re-analysis of the deposited data

How the results depend on the processing

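Against 877 bright probe sets higher and 925 lower, a 1.5-fold threshold gave 1957 and 1986, and no fold threshold 4194 and 3847. All other alternatives stayed within 1.5 times. The lowest counts were 674 and 712 on the log2(value + 16) scale, and shifting arrays to equal medians gave 712 and 1093, lowering the share of higher calls to 39.5% against 48.7%. Leaving out 1 array at a time gave 817 to 870 higher and 857 to 923 lower. The replicate block gave 871 and 917, with 1781 of the 1802 calls kept. Same-numbered KR and KM arrays correlated in their deviations at −0.136, −0.051 and −0.080, and the block changed the call of 1 named gene, NAS1.

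Of 151 named probe sets called, 21 lost the call with KR arrays 1 and 2 both left out, 11 under the methods' t-test and 10 on the log2(value + 16) scale. No called gene reversed. Some small, uncalled differences changed sign: KCO1 stood at 0.069, HAK22 at 0.0008 and HAK10 at 0.11 with KR arrays 1 and 2 left out, and HAK2 at −0.0005 under equal medians. With 1 array left out at a time, HAK22 ran from −0.065 to 0.0014, HAK10 from −0.080 to 0.049 and AMT1-2 from −0.19 to 0.048. The cause was not tested.

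The count of promoters with a motif and its window were not run, since no promoter sequences were used here. Dim probe sets stay uncounted, groups of 3 arrays are too small for a check of single outlying arrays, and folds from background levels are limited by that background.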
